A study of Arabidopsis thaliana with 18 samples.

Results

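Whole Arabidopsis thaliana seedlings of the mutant arp6-10 were compared with seedlings of its wild type, the accession Col-0, after 2 h at 27 °C. The comparison took every array that the labels place in those groups, 4 of arp6-10 and 2 of Col-0, which makes 6 of the 18 arrays of the series. Both genotypes had been kept dark at 4 °C for 48 h, raised at 20 °C, moved as 5-day-old seedlings to 12 °C and continuous light for 3 days, and then shifted to 27 °C. All seedlings carry 8 days as their age, grew without sugar, and received no other treatment according to the labels. The other arrays hold the same genotypes at 12 °C and after 24 h at 27 °C, again with 2 arrays of Col-0 and 4 of arp6-10 at each point. The labels do not say how the arp6-10 allele arose, how many seedlings went into a sample, or whether replicates were grown apart. A p-value here sets a group difference against the spread of arrays within groups, pooled over all 18 arrays. Part of that spread may therefore be technical.

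ARP6 is an actin-related protein and a subunit of the SWR1 complex, a chromatin remodeller that exchanges the histone H2A of a nucleosome for its variant H2A.Z. H2A.Z marks the first nucleosomes of many genes, and in Arabidopsis its occupancy falls as temperature rises. The question addressed here is which transcripts differ between seedlings with and without intact ARP6 shortly after warming. ARP6 itself had no probe set paired with it alone, so the mutation was not checked on its own transcript.

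Signals were read as log2(signal + 16) after quantile normalization, a scale that cannot go under 4 and that understates the differences of dim genes. A group mean under 5 on it stands for a signal under 16, which is not shown to be above background, and a fold against such a group is a rough value. A probe set was called where the Benjamini-Hochberg adjusted p of limma's moderated test was under 0.05. All differences are arp6-10 minus Col-0, and each rests on n = 2 Col-0 and n = 4 arp6-10 arrays.

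Several measures of the arrays set limits on the comparison. Correlations over the tested probe sets were 0.970 between the Col-0 arrays, 0.973 to 0.987 among the arp6-10 arrays, and 0.934 to 0.957 between the genotypes. The ratio of the 3′ to the 5′ probe set of the GAPDH control, which grows as RNA is shortened, was 2.58 and 6.78 on the Col-0 arrays and 1.47 to 3.09 on the arp6-10 arrays, and Col-0 replicate 2 had the highest ratio of the 18 arrays. The geometric mean signal of the spiked hybridization controls was 1876 and 2821 on the Col-0 arrays and 1459 to 1773 on the arp6-10 arrays. A line was drawn from the arp6-10 mean at 12 °C (0) to that at 24 h (1), with the 2 arrays named next and the placed array itself left out of both means. On it the Col-0 arrays lay at 0.738 and 0.748 and the arp6-10 arrays at 0.502 to 0.634. The hybridization controls and the place on that line separated the genotypes at 2 h, while the GAPDH ratio overlapped, with only Col-0 replicate 2 apart. The part of these measures in the results was not tested. On the same line the arrays labelled arp6-10 12 °C replicate 3 and arp6-10 24 h replicate 2 stood apart from their labels, at 0.956 and -0.0357, where the other arrays of those groups lay at 0.0799 to 0.143 and 0.884 to 0.928. Neither belongs to the 2 h groups, and they reach the 2 h comparison through the shared estimate of the spread and the normalization. They do enter the arp6-10 means behind each difference given at 12 °C or 24 h and each change between 12 °C and 2 h. Counts are therefore also given with 16 arrays, and values for those points include these arrays unless 16 arrays are named.

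After 2 h of warmth 1466 of 15922 tested probe sets were called between the genotypes, which is 9.21% of those tested. Of these, 825 (5.18%) were higher in arp6-10 and 641 (4.03%) were lower. The higher ones differed by 2.05-fold at the median and the lower ones by 1.85-fold, and the smallest called differences were 1.40-fold and 1.36-fold. A difference of at least 2-fold was reached by 444 higher and 218 lower probe sets, and one of at least 4-fold by 19 and 15. Without the pair of arrays that stood apart, 3078 probe sets (19.3%) were called, 1681 higher (10.6%) and 1397 lower (8.77%). The count fell to 179 without Col-0 replicate 2 and to 836 without Col-0 replicate 1, and of those 179 all but 17 were among the 1466.

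**Figure D1:**
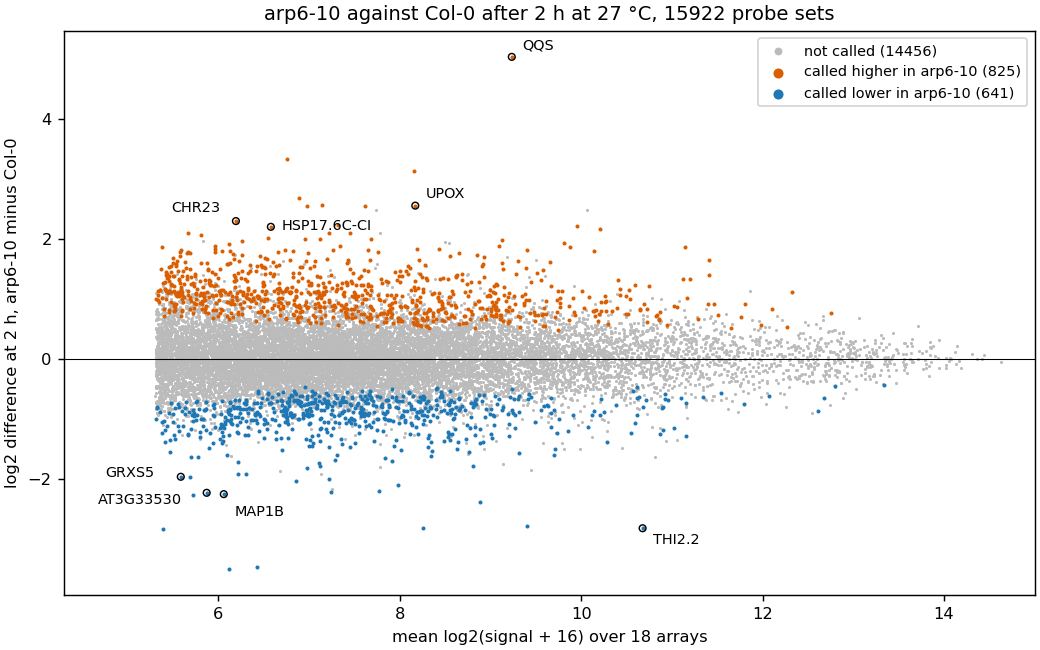
Each point is 1 of 15922 tested probe sets, with its mean log2(signal + 16) over 18 arrays on the x axis and its log2 difference at 2 h (arp6-10 minus Col-0) on the y axis. Colours mark the 825 probe sets called higher and the 641 called lower, and circled genes are named; QQS, at 5.03, lies above all other probe sets.

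The plot of differences against level shows calls at every brightness. Of the 3981 dimmest tested probe sets 9.37% were called, and of the 3981 brightest 7.56%. In 150 of the 825 higher probe sets the Col-0 mean was under 5, while 6 of the 641 lower ones had an arp6-10 mean under 5. The groups of arrays did not overlap for 1462 of the 1466 called probe sets, beside 6775 of all 15922 tested (42.6%). A lack of overlap, given below for single genes, is thus common among uncalled probe sets too. The 15 largest increases and 15 largest decreases named below were selected for it, so in them it is no added result. The direction split moved with the scaling: on the deposited values without quantile normalization 1272 probe sets were higher and 573 lower, so that 68.9% of calls were higher in place of 56.3%, and the median difference over all tested probe sets was 0.09 in place of 0.02.

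Of the tested probe sets, 8646 represent a gene that could be named, and 826 of these genes (9.55%) were called, 465 higher and 361 lower. Calls came from every nuclear chromosome at a like share, between 8.64% of tested genes on chromosome 3 and 10.4% on chromosome 4. Of 69 tested plastid-encoded genes, 1 was called, petD, which encodes a subunit of the cytochrome b6f complex and was lower by 1.05 on the log2 scale (adjusted p = 0.0431). In RNA from whole seedlings, fewer cells of a type and less RNA per cell cannot be told apart.

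The largest increase was that of QQS, an orphan gene without relatives in other species whose activity is known to alter starch content. QQS read 6.46 and 5.64 on the Col-0 arrays and 11.10, 11.08, 11.26 and 10.88 on the arp6-10 arrays. The arp6-10 arrays lay close together and far above both Col-0 arrays. The difference was 5.03 ± 0.32 (SE) on the log2 scale, or 32.7-fold (adjusted p = 1.33e-07), and it was 5.50 at 12 °C and 5.53 at 24 h.

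Next in size was AT1G65370, which encodes a protein with a TRAF-like domain. It read 5.53 and 6.06 in Col-0 and 9.08, 8.92, 9.07 and 8.64 in arp6-10. All arp6-10 arrays lay far above both Col-0 arrays, and the fitted difference was 3.13 ± 0.31 (8.77-fold, adjusted p = 2.77e-05). AT5G22320, a leucine-rich repeat gene, read 5.47 and 4.78 in Col-0 and 8.09, 7.95, 7.47 and 7.23 in arp6-10, without overlap, a difference of 2.56 ± 0.29 (adjusted p = 0.000101). Differences of both genes were called at 12 °C (3.61 and 3.40) and at 24 h (2.79 and 1.3) as well.

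Of the 15 genes, 3 encode mitochondrial proteins, a grouping made after their values were seen. UPOX (AT2G21640), a marker gene of oxidative stress whose product is found in mitochondria, read 7.10 and 7.72 in Col-0 and 10.04, 9.60, 10.10 and 10.11 in arp6-10. All arp6-10 arrays were at least 1 log2 unit above both Col-0 arrays, and the difference was 2.55 ± 0.35 (5.87-fold, adjusted p = 0.000547). AT12CYS-2 (AT5G09570), a small cysteine-rich protein of mitochondria, read 6.90 and 6.57 in Col-0 and 8.19, 8.30, 9.43 and 9.42 in arp6-10. Its arp6-10 arrays fell into a lower and a higher pair, both above Col-0, with a difference of 2.1 ± 0.49 (adjusted p = 0.015). NDB4, an external NAD(P)H dehydrogenase of the inner mitochondrial membrane that bypasses complex I, read 5.56 and 6.01 in Col-0 and 7.50, 7.28, 8.36 and 7.98 in arp6-10, with a difference of 1.99 ± 0.47 (adjusted p = 0.015). Its groups did not overlap. In the list of oxidative stress and redox enzymes NDB4 was the single called gene of 3 tested; GSTU25, a glutathione transferase, differed by 2.48 (adjusted p = 0.175) and NDB2, a relative of NDB4, by 0.85 (adjusted p = 0.421), with no overlap of groups in either. Both passed with 16 arrays (adjusted p = 9.06e-05 and 0.0491). The calls of AT12CYS-2 and NDB4 were lost without either Col-0 array, with adjusted p = 0.0575 and 0.165 for AT12CYS-2 and 0.112 and 0.0927 for NDB4, whereas UPOX kept its call with any array left out.

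The remaining genes among the 15 largest increases covered several roles. CHR23, a SWI2/SNF2 chromatin remodelling ATPase, and HSP17.6C-CI, a cytosolic small heat shock protein, are described with their families. AT4G16660, a member of the HSP70 family, read 6.40 and 5.86 in Col-0 and 8.69, 8.19, 8.12 and 8.44 in arp6-10, which did not overlap, and differed by 2.23 ± 0.25 (adjusted p = 0.000101). AT2G41090, a calmodulin-like calcium-binding protein, read 9.22 and 8.68 in Col-0 and 11.29, 11.02, 10.72 and 11.41 in arp6-10, again apart, with a difference of 2.16 ± 0.59 (adjusted p = 0.0303). That call was lost without either Col-0 array, with differences of 2.42 without replicate 1 and 1.88 without replicate 2. It was also lost without arp6-10 replicate 1, 2 or 4.

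AT5G52280, related to myosin heavy chains, AT1G06720 and AT2G03130 rose from Col-0 means under 5 (4.13, 4.75 and 4.58) to arp6-10 means of 6.20, 7.30 and 6.68, so their folds are rough. AT1G15200, a gene of the pinin type known for a link to splicing, differed by 2.01 ± 0.35 (adjusted p = 0.00294), and AT4G08310 by 2.1 ± 0.39 (adjusted p = 0.00383). The groups of arrays did not overlap in any of these 5 genes, which were selected for that. Without Col-0 replicate 2 the calls of AT1G06720, AT2G03130, AT1G15200 and AT4G08310 were lost (adjusted p = 0.0727, 0.0745, 0.101 and 0.113), and that of AT5G52280 was kept (adjusted p = 0.0141). Across the 15 genes the differences ran from 3.99-fold to 32.7-fold. Of the 15, 12 were also called higher at 12 °C, beside 17.7% of all tested probe sets, and 4 at 24 h, beside 0.49%.

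**Figure D2:**
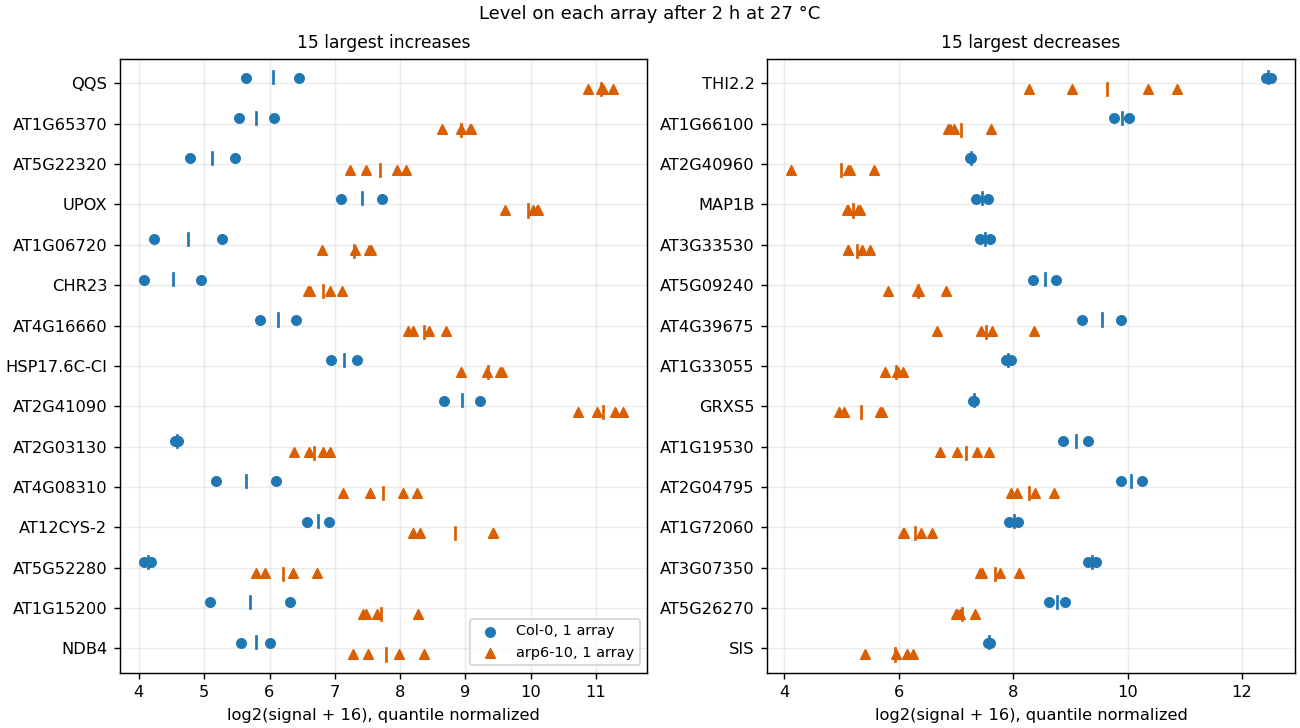
Level of the 15 genes with the largest increases (left) and decreases (right) on each array after 2 h at 27 °C, as log2(signal + 16) on the x axis; circles are the 2 Col-0 arrays, triangles the 4 arp6-10 arrays, and short lines the group means. The groups of arrays do not overlap in any of the 30 genes, which were selected for that, and the arp6-10 values of THI2.2 spread from 8.28 to 10.87.

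The largest decreases among named genes were those of thionins, small cysteine-rich peptides toxic to microbes. THI2.2 read 12.41 and 12.50 in Col-0 and 10.36, 10.87, 8.28 and 9.04 in arp6-10. It was high on both Col-0 arrays and widely spread in arp6-10, without overlap, and fell by 2.82 ± 0.69 on the log2 scale (7.06-fold, adjusted p = 0.019). AT1G66100, of the same family, read 10.03 and 9.76 in Col-0 and 6.91, 6.97, 6.87 and 7.61 in arp6-10, and fell by 2.81 ± 0.65 (adjusted p = 0.0135). Both calls were lost without either Col-0 array, with adjusted p = 0.0866 and 0.159 for THI2.2 and 0.0873 and 0.111 for AT1G66100. THI2.2 was the single called gene of 4 tested on the list of jasmonate response and defence peptides, where the plant defensin gene PDF1.2b differed by -1.43 (adjusted p = 0.235). The 3 tested genes of salicylic acid defence had differences of -0.11 to 0.62, and none was called.

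MAP1B, a methionine aminopeptidase, belongs to the enzymes that trim the first residue from new proteins. It read 7.56 and 7.36 in Col-0 and 5.29, 5.33, 5.10 and 5.11 in arp6-10. The arrays of each genotype lay close together and far from the other genotype, and the difference was -2.25 ± 0.29 (4.76-fold, adjusted p = 0.000367). It was not called at 12 °C (-0.68, adjusted p = 0.0825), was called at 24 h (-1.95, adjusted p = 0.00255), and the change between 12 °C and 2 h did not pass with all arrays (-1.57, adjusted p = 0.0861) and passed with 16 (-1.58, adjusted p = 0.0353). AT5G09240 read 8.35 and 8.75 in Col-0 and 6.83, 6.36, 6.31 and 5.81 in arp6-10, without overlap, and fell by 2.22 ± 0.25 (adjusted p = 9.56e-05), with -2.07 at both other points.

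AT2G40960 fell by 2.27 ± 0.32 (adjusted p = 0.000703), from 7.27 and 7.25 in Col-0 to 5.58, 5.11, 5.15 and 4.13 in arp6-10, where the mean of 4.99 is not shown to be above background. Of the 15 largest decreases 12 were also called lower at 12 °C, beside 14.5% of all tested probe sets. AT4G39675, AT1G33055 and AT1G19530 are among them (-2.01, -1.44 and -1.92 at 12 °C). These 3 are small genes whose transcripts are known to rise when oxygen is low, a grouping made after their values were seen. At 2 h they were lower in arp6-10 by 2.02 ± 0.56, 1.97 ± 0.33 and 1.92 ± 0.42 (adjusted p = 0.0324, 0.00207 and 0.00938). AT1G33055 kept its call with any array left out. AT4G39675 lost it without either Col-0 array, with differences of -2.35 and -1.68, and without arp6-10 replicate 1, 2 or 3. AT1G19530 lost it without Col-0 replicate 2, with a difference of -1.70. Of 13 tested genes known to rise in low oxygen, no others were called at 2 h, and the median was -0.30. AT5G26270, AT1G72060 and SIS, a serine-rich gene induced by salt, fell by 1.66, 1.72 and 1.64, and AT2G04795 and AT3G07350 by 1.78 and 1.70. The calls of AT2G04795, AT3G07350 and SIS were lost without either Col-0 array. That of AT3G07350 was lost in 13 of 18 fits with a single array left out, among them those without each of the 2 h arrays. That of AT2G04795 was also lost without arp6-10 replicate 1, 3 or 4, and that of SIS without arp6-10 replicate 3.

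Small heat shock proteins bind unfolding proteins and keep them soluble, and their genes are among the most heat-inducible in plants. Of 8 tested members 4 were higher in arp6-10 and none lower, with a median difference of 1.21, beside 5.18% higher and a median of 0.02 over all tested probe sets. HSP17.6C-CI read 6.95 and 7.33 in Col-0 and 9.56, 9.33, 8.94 and 9.53 in arp6-10. Every arp6-10 array was well above both Col-0 arrays, and the difference was 2.2 ± 0.42 (4.6-fold, adjusted p = 0.00445).

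HSP17.6B-CI, of the same cytosolic class, read 10.10 and 9.72 in Col-0 and 11.46, 11.41, 11.16 and 11.85 in arp6-10, a difference of 1.56 ± 0.28 (adjusted p = 0.00321). HSP23.5, which works in mitochondria, read 9.28 and 9.10 in Col-0 and 10.93, 10.63, 11.08 and 11.45 in arp6-10, a difference of 1.84 ± 0.35 (adjusted p = 0.00479). HSP15.7, known as a peroxisomal member, read 8.06 and 7.97 in Col-0 and 9.10, 9.06, 8.72 and 8.58 in arp6-10, a difference of 0.85 ± 0.25 (adjusted p = 0.0428). None of these 3 overlapped between genotypes.

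HSP14.7 had the largest difference of the list, 2.48 ± 0.80, and its groups did not overlap, but it did not pass with all arrays (adjusted p = 0.0615) and did with 16 (adjusted p = 9.71e-06). The other 3 tested members differed by -0.69 to 0.18. The calls of HSP17.6B-CI and HSP23.5 were lost without Col-0 replicate 2, where their differences were 1.37 and 1.74. That of HSP15.7 was lost in 11 of 18 fits with a single array left out. Among these were the fits without either Col-0 array (differences of 0.89 and 0.81) and without arp6-10 replicate 1, 2 or 3. HSP17.6C-CI kept its call with any array left out, by a narrow margin.

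At 12 °C the difference of HSP17.6C-CI was 0.38 (adjusted p = 0.51) and that of HSP17.6B-CI 0.35 (adjusted p = 0.356), and neither was called. The changes of their differences between 12 °C and 2 h, 1.82 and 1.21, did not pass with all arrays (adjusted p = 0.17 and 0.167). With 16 arrays that of HSP17.6C-CI was 2.12 and passed (adjusted p = 0.0188), and that of HSP17.6B-CI did not (adjusted p = 0.0595). HSP23.5, HSP15.7 and HSP14.7 were called at 12 °C (1.28, 1.45 and 2.23), and no member of the list was called at 24 h. With 16 arrays HSP14.7 differed by 1.53 at 12 °C (adjusted p = 0.000279) and by 3.50 at 24 h, where it was called (adjusted p = 3.36e-07).

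**Figure D3:**
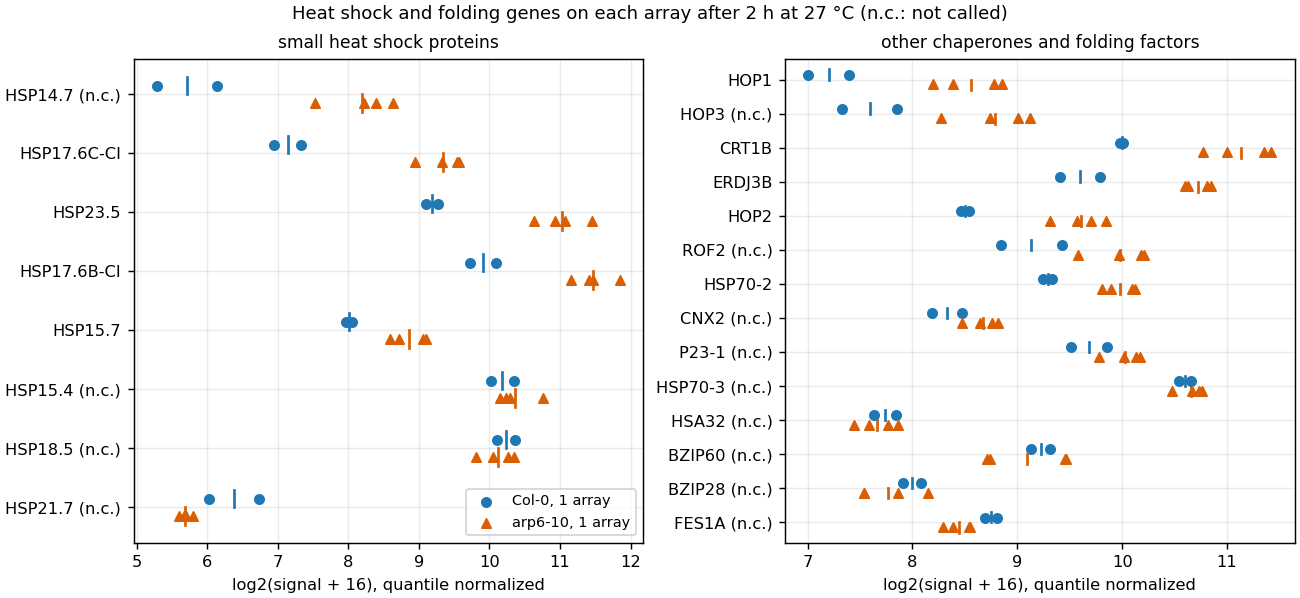
Level of the tested small heat shock protein genes (left) and of other chaperone and folding genes (right) on each array after 2 h at 27 °C, as log2(signal + 16) on the x axis; circles are the 2 Col-0 arrays, triangles the 4 arp6-10 arrays, short lines the group means, and n.c. marks genes not called. The arp6-10 triangles of HSP17.6C-CI, HSP23.5 and HSP17.6B-CI lie to the right of both Col-0 circles, while those of HSP15.4 and HSP18.5 overlap them.

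Larger chaperones and their partners refold proteins and pass them on. Of 9 tested members, 3 were higher and none lower, beside 5.18% higher among all tested probe sets, with a median of 0.69. HOP1, a co-chaperone that links HSP70 to HSP90, read 7.40 and 7.01 in Col-0 and 8.39, 8.20, 8.85 and 8.78 in arp6-10, a difference of 1.35 ± 0.23 (adjusted p = 0.00216). HOP2, a relative of HOP1, read 8.47 and 8.54 in Col-0 and 9.84, 9.70, 9.31 and 9.57 in arp6-10, a difference of 1.1 ± 0.26 (adjusted p = 0.0161). HSP70-2, a cytosolic HSP70, read 9.33 and 9.24 in Col-0 and 10.12, 9.90, 10.10 and 9.81 in arp6-10, a difference of 0.69 ± 0.16 (adjusted p = 0.0133).

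The arrays of the genotypes did not overlap in any of these 3 genes. HOP3, the third gene of that family, differed by 1.19 (adjusted p = 0.252) and passed with 16 arrays (adjusted p = 0.0105). The other uncalled members differed by -0.31 to 0.85. The 3 called genes were also called at 12 °C, with 2.29 for HOP1, 1.90 for HOP2 and 1.55 for HSP70-2. The change between the points did not pass with all arrays (adjusted p = 0.185, 0.341 and 0.0861), and with 16 that of HSP70-2 did (adjusted p = 0.0444). All 3 calls at 2 h were lost without Col-0 replicate 2 (adjusted p = 0.0673 for HOP1, 0.13 for HOP2 and 0.151 for HSP70-2), and those of HOP2 and HSP70-2 also without replicate 1 (adjusted p = 0.0901 and 0.0553).

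In the endoplasmic reticulum 2 of 5 tested folding genes were higher and none lower, beside 5.18% higher among all tested probe sets. CRT1B, a calreticulin that binds newly made glycoproteins, read 10.00 and 9.98 in Col-0 and 11, 10.77, 11.35 and 11.42 in arp6-10. ERDJ3B, a J-domain co-chaperone of that compartment, read 9.79 and 9.41 in Col-0 and 10.84, 10.60, 10.63 and 10.81 in arp6-10. Both were separated between the genotypes, with differences of 1.14 ± 0.26 (adjusted p = 0.011) and 1.12 ± 0.24 (adjusted p = 0.00833), and both calls were lost without Col-0 replicate 2 (adjusted p = 0.12 and 0.156), that of CRT1B also without replicate 1 (adjusted p = 0.0618). The other 3, which include the stress transcription factor genes BZIP28 and BZIP60, differed by -0.23 to 0.34. The median over the 5 was 0.34.

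SWC2, the subunit of the SWR1 complex that binds H2A.Z, was the single tested member of the 13 genes listed for SWR1 and H2A.Z. It read 4.73 and 5.02 in Col-0 and 6.52, 6.30, 5.73 and 5.75 in arp6-10, a difference of 1.2 ± 0.24 (adjusted p = 0.00618). The groups did not overlap, and the Col-0 mean of 4.88 is not shown to be above background.

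Among other remodelling ATPases 2 of 3 tested genes were called higher, beside 5.18% of all tested probe sets. CHR23 read 4.95 and 4.08 in Col-0 and 7.11, 6.92, 6.60 and 6.63 in arp6-10, a difference of 2.30 ± 0.26 (adjusted p = 0.000101), again with a Col-0 mean under 5. CHR17, an ISWI-type ATPase that spaces nucleosomes, read 6.90 and 6.68 in Col-0 and 7.97, 7.50, 7.76 and 7.36 in arp6-10, a difference of 0.86 ± 0.22 (adjusted p = 0.0233). INO80, the ATPase of a related complex, differed by 0.69 (adjusted p = 0.0681). None of the 3 overlapped between genotypes, and all of them and SWC2 were called at 12 °C (2.84, 2.00, 1.05 and 2.02). The 2 h call of CHR17 was lost without either Col-0 array (differences of 0.97 and 0.75) and without arp6-10 replicate 1 or 3. That of SWC2 was lost without Col-0 replicate 1 (a difference of 1.06), and that of CHR23 was kept with any array left out.

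Of 20 listed ribosome biogenesis genes 7 were tested. All 7 had positive differences, beside 8208 of all 15922 tested probe sets. Of the 7, 2 were called, both higher, beside 5.18% called higher among all tested probe sets. NOP58B, a core protein of the particles that guide methylation of ribosomal RNA, read 7.49 and 7.29 in Col-0 and 9.06, 8.88, 9.09 and 8.87 in arp6-10, a difference of 1.58 ± 0.27 (adjusted p = 0.00273). SMO4, a nucleolar protein needed for ribosome assembly, read 7.63 and 7.31 in Col-0 and 9.30, 9.04, 8.85 and 8.86 in arp6-10, a difference of 1.54 ± 0.22 (adjusted p = 0.000815). In both genes every arp6-10 array was above both Col-0 arrays. The uncalled members differed by 0.38 to 0.60, and of these BRX1-1 passed with 16 arrays (0.59, adjusted p = 0.0141). SMO4 kept its call with any array left out, and that of NOP58B was lost without Col-0 replicate 2 (adjusted p = 0.0586).

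Starch genes followed QQS in direction. DPE1, the plastid enzyme that rearranges short glucans during starch breakdown, read 7.44 and 7.32 in Col-0 and 8.31, 8.29, 8.31 and 8.11 in arp6-10, a difference of 0.88 ± 0.25 (adjusted p = 0.0369). SBE2.2, a starch branching enzyme, read 8.58 and 8.20 in Col-0 and 9.80, 9.57, 9.0 and 9.37 in arp6-10, a difference of 1.04 ± 0.28 (adjusted p = 0.0297). With QQS, already named as the largest increase, they made 3 higher of 4 tested, beside 5.18% of all tested probe sets. The fourth, APL3, a large subunit of the enzyme that makes ADP-glucose, differed by 1.52 (adjusted p = 0.0667). The groups did not overlap in any of the 4, which also held for 42.6% of all tested probe sets. The call of DPE1 was lost whichever of the 2 h arrays was left out. That of SBE2.2 was lost without either Col-0 array, and without arp6-10 replicate 1 or 2.

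The CC-type glutaredoxins, a plant-specific class of small thiol proteins that act with transcription factors, gave calls in 1 direction. Of 7 tested members 4 were called lower in arp6-10, beside 4.03% of all tested probe sets. None was called higher, and the median was -1.30. GRXS5 read 7.30 and 7.32 in Col-0 and 5.71, 5.68, 4.95 and 5.05 in arp6-10, and fell by 1.96 ± 0.36 (3.9-fold, adjusted p = 0.0036). GRXS8 read 6.45 and 7.27 in Col-0 and 5.47, 5.49, 4.83 and 5.45 in arp6-10, and fell by 1.55 ± 0.33 (adjusted p = 0.008). GRXS3 read 6.70 and 7.76 in Col-0 and 5.78, 5.92, 5.69 and 5.96 in arp6-10, and fell by 1.39 ± 0.32 (adjusted p = 0.0139).

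In each of these 3 the groups were apart, although the Col-0 arrays of GRXS3 differed by over 1 log2 unit. GRXS4 fell by 1.04 ± 0.30 (adjusted p = 0.0363), from 7.06 and 7.47 in Col-0 to 6.15, 5.89, 5.98 and 6.88 in arp6-10. GRXS2 had a difference of -1.30 that did not pass (adjusted p = 0.092) and passed with 16 arrays (adjusted p = 0.00246). GRXS11 went the other way, 1.08, which also missed the threshold (adjusted p = 0.0631) and passed with 16 arrays (adjusted p = 0.0278). All 4 calls were lost without Col-0 replicate 2, with differences of -1.96 for GRXS5, -1.15 for GRXS8, -0.87 for GRXS3 and -0.83 for GRXS4. That of GRXS4 was also lost without Col-0 replicate 1 and without arp6-10 replicate 1, 2 or 3. On the deposited values 3 members were called lower and 1 higher. The 4 called genes carry neighbouring locus numbers, AT4G15660 to AT4G15700, and closely related copies can share signal on an array. The 4 were lower at 12 °C too, by 1.60 to 2.34 on the log2 scale, and none was called at 24 h.

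**Figure D4:**
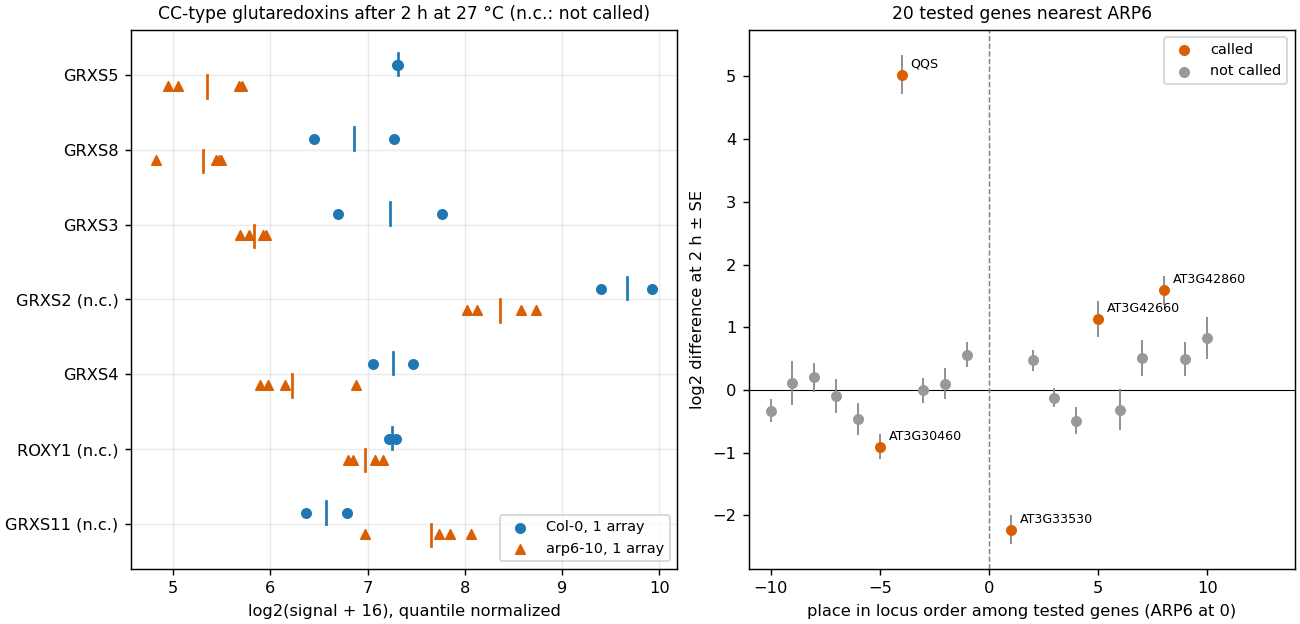
Left, level of the 7 tested CC-type glutaredoxin genes on each array after 2 h at 27 °C, as log2(signal + 16), with circles for the 2 Col-0 arrays, triangles for the 4 arp6-10 arrays and short lines for group means (n.c.: not called). Right, log2 difference at 2 h ± SE of the 20 tested genes nearest ARP6 in locus order, where QQS at 5.03 and AT3G33530 at -2.23 stand out among 5 called genes.

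QQS lies on chromosome 3 within the 10 tested genes that precede ARP6 in locus order. Among the 10 named and tested genes on each side of ARP6, 5 of 20 were called, 3 higher and 2 lower, beside 9.55% of all named genes tested. AT3G33530, a WD40-repeat gene and the nearest tested gene on the far side of ARP6, read 7.42 and 7.59 in Col-0 and 5.36, 5.12, 5.11 and 5.50 in arp6-10. It was clearly lower on every arp6-10 array, by 2.23 ± 0.23 (4.69-fold, adjusted p = 3.39e-05), and was lower at 12 °C and 24 h as well (-3.10 and -2.06).

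AT3G42860 read 4.17 and 4.27 in Col-0 and 5.76, 5.89, 5.82 and 5.77 in arp6-10, a difference of 1.59 ± 0.24 (adjusted p = 0.000963) from a Col-0 mean under 5. AT3G42660 rose by 1.13 ± 0.28 (adjusted p = 0.0207). Its difference was 1.75 without Col-0 replicate 1 and 0.52 without replicate 2, and it was not called without Col-0 replicate 2 (adjusted p = 0.421) or arp6-10 replicate 1 (adjusted p = 0.057). AT3G30460 fell by 0.91 ± 0.20 (adjusted p = 0.00942) and lost its call without Col-0 replicate 2 (adjusted p = 0.115). The other 15 genes around ARP6 were not called, of which AT3G42050 and AT3G42630 passed with 16 arrays (adjusted p = 0.0225 and 0.047), and AT3G32940, which directly precedes it among tested genes, differed by 0.56 (adjusted p = 0.0903). Whether any of these differences comes from the ARP6 locus itself or from sequence linked to the allele was not tested.

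Many lists held no called gene at 2 h. The 10 tested nuclear photosynthesis genes differed by -0.40 to 0.27, with a median of -0.08, but on the deposited values their median was -0.49 and 1 was called lower. The 69 plastid-encoded genes had a median of -0.27, and on the deposited values one of -0.56 with 8 called lower, so the size of both shifts depends on the scaling. With 16 arrays PSBW, a small protein of photosystem II, passed as lower (-0.40 with all arrays, adjusted p = 0.316, and 0.034 with 16).

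All 7 tested flavonoid and anthocyanin genes had positive differences, 0.07 to 1.51, beside 8208 of all 15922 tested probe sets, and none passed with all arrays. With 16 arrays 4 of them were called higher, beside 10.6% of all tested probe sets in that fit. These were DFR, a reductase on the path to anthocyanins (1.19 with all arrays, adjusted p = 0.594), the glucosyltransferases UGT75C1 (1.51, adjusted p = 0.412) and UGT78D1 (0.80, adjusted p = 0.187), and CHIL, an enhancer of the pathway (0.65, adjusted p = 0.564). Their mean level also set a doubted array apart, with 7.86 on arp6-10 12 °C replicate 3 against 10.5 to 10.9 on the others of that group. On the 2 h arrays their mean level ran from 8.12 to 8.28 in arp6-10, above the 7.44 and 7.46 of Col-0.

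The 5 tested cold response genes differed by -0.74 to 0.17, the 4 of DNA replication and cell division by -0.37 to 0.45, and the 3 of glucosinolate metabolism by 0.29 to 0.51, with none called at 2 h. In the last list UGT74C1 had the largest difference (0.51, adjusted p = 0.0749) and passed with 16 arrays (adjusted p = 0.0363). Of 4 tested genes of warm growth, auxin and light growth none was called, and EXLA1, an expansin-like cell wall protein, differed by -1.01 (adjusted p = 0.262) and passed with 16 arrays (adjusted p = 0.00137). GI, the single tested clock gene, differed by -0.50 (adjusted p = 0.0605) and passed with 16 arrays (adjusted p = 0.0292). Heat shock factors, flowering time genes and phosphate starvation genes had no tested member.

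Markers of tissues were read to see whether the seedlings differed in makeup. None of 4 markers of photosynthetic shoot tissue and none of 2 root markers was called, with differences of -0.14 to 0.27 and 0.17 to 0.62, although on the deposited values 1 shoot marker was called lower, and with 16 arrays the root marker NAI2 was called higher (0.63, adjusted p = 0.0284). The summed deposited signal of the shoot markers was 52291 and 56109 on the Col-0 arrays and 36715 to 40164 on the arp6-10 arrays, which do not overlap. That of the root markers was 7514 to 10308 in Col-0 and 6274 to 10015 in arp6-10, which overlap. No tested marker was at 0 on a 2 h array, markers of seed storage and of floral organs had no tested member, and the part of tissue makeup in the results was not tested.

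The same genotypes at the other points use arrays that the 2 h comparison did not, although all share 1 normalization and 1 estimate of the spread. At 12 °C 5128 probe sets (32.2%) were called, and at 24 h 150 (0.942%), 78 higher (0.49%) and 72 lower (0.452%). Of the 825 probe sets higher at 2 h, 629 were also called higher at 12 °C, which is 76.2% of them and 22.4% of the 2812 called higher there (17.7% of those tested), and 3 were called lower. Of the 641 lower at 2 h, 477 were called lower at 12 °C, 74.4% of them and 20.6% of the 2316 called lower there (14.5% of those tested), and 2 were called higher.

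At 24 h 43 of the 825 were called higher, 5.21% of them and 55.1% of the 78 called higher there, and 47 of the 641 were called lower, 7.33% of them and 65.3% of the 72 called lower there. None of the 1466 was called in the opposite direction. The sign at 24 h was the same for 744 of the 825 (49.7% were positive among all tested) and for 559 of the 641 (50.3% were negative among all tested). The median difference of the higher probe sets was 1.04 at 2 h, where they were selected, 1.14 at 12 °C and 0.39 at 24 h, and that of the lower ones was -0.89, -0.83 and -0.37. With 16 arrays 6196 probe sets (38.9%) were called at 12 °C, 3304 higher (20.8%) and 2892 lower, and 488 (3.06%) at 24 h, 268 higher (1.68%) and 220 lower (1.38%). Of the 1681 called higher at 2 h in that fit 1209 were called higher at 12 °C and 134 at 24 h, and of the 1397 called lower 991 and 109 were called lower. The medians of those 1681 were 0.83 at 2 h, 0.93 at 12 °C and 0.28 at 24 h. Those of the 1397 were -0.75, -0.78 and -0.26.

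**Figure D5:**
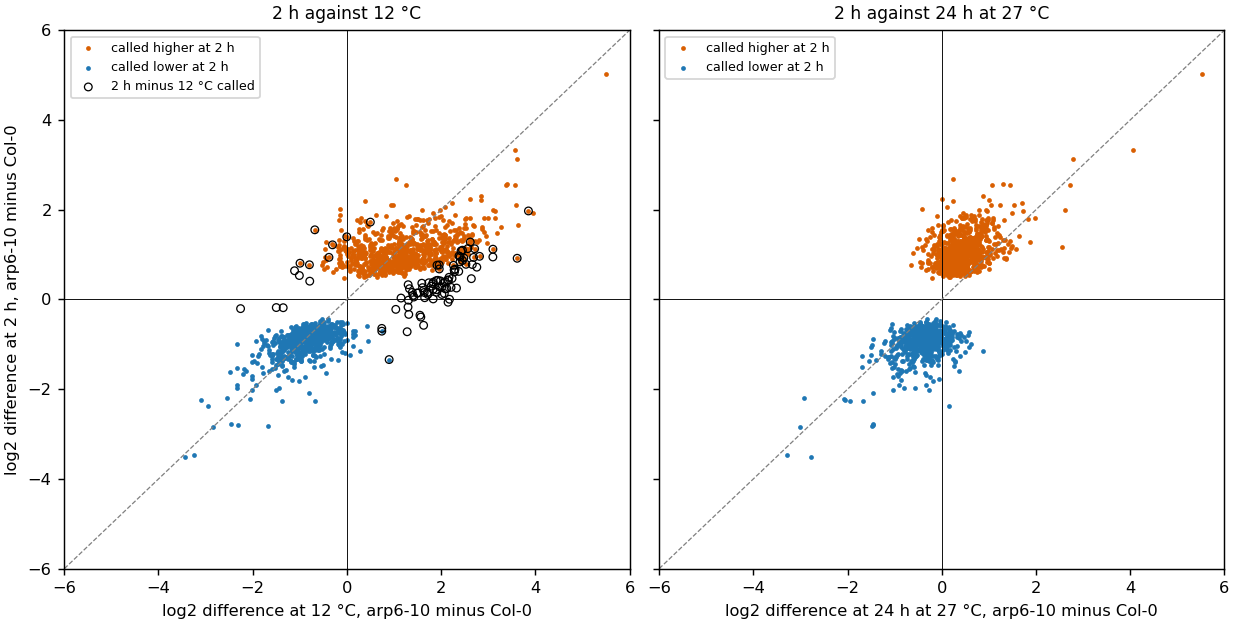
Log2 difference (arp6-10 minus Col-0) at 2 h on the y axis against that at 12 °C (left) and after 24 h at 27 °C (right) for the 1466 probe sets called at 2 h, with a dashed line where both are equal. Open circles on the left are the 94 probe sets whose difference changed between 12 °C and 2 h, of which 29 are among the 1466. Points spread along the line at 12 °C and lie nearer to 0 on the x axis at 24 h, where QQS keeps its place in the upper right.

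The plot of differences at the other points also shows where the genotype difference changed. The 2 h difference minus that at 12 °C was called for 94 probe sets (0.59%), 13 higher (0.0816%) and 81 lower (0.509%). In 88 of them the genotype difference was smaller in size at 2 h than at 12 °C, and in 6 it was larger. The genotype difference itself was called at 12 °C in 91 and at 2 h in 29, with 3 called at 2 h but not at 12 °C. The count of 94 became 317 (1.99%) with 16 arrays, 80 higher (0.502%) and 237 lower (1.49%). This count ranged from 9 without Col-0 2 h replicate 1 to 209 without Col-0 12 °C replicate 2, and without other arrays of the 12 °C and 2 h groups it fell as low as 18.

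The largest change belonged to AT1G54410, a small dehydrin, one of the proteins that protect cells as they lose water. At 2 h it read 10.83 and 10.56 in Col-0 and 12.11, 11.98, 11.20 and 11.16 in arp6-10, which did not overlap. The genotype difference was 3.61 at 12 °C and 0.92 at 2 h (adjusted p = 0.0483), a change of -2.70 (adjusted p = 0.0146). The 2 h call itself was lost in 11 of 18 fits with a single array left out. Among these were the fits without either Col-0 2 h array (differences of 1.06 and 0.77) and without arp6-10 2 h replicate 1 or 2.

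AT2G20550 and AT3G14200 both encode proteins with a J domain, the part of HSP40 proteins that activates HSP70. AT2G20550 read 6.13 and 6.74 in Col-0 and 5.09, 5.41, 4.57 and 5.31 in arp6-10 at 2 h, without overlap, and its difference turned from 0.90 at 12 °C to -1.34 at 2 h (adjusted p = 0.00693), a change of -2.24 (adjusted p = 0.0198). AT3G14200 differed by 1.63 at 12 °C and by -0.58 at 2 h (adjusted p = 0.268), a change of -2.20 (adjusted p = 0.0368). POLD3, named for a subunit of DNA polymerase delta and a member of the replication list, differed by 2.33 at 12 °C and by 0.25 at 2 h (adjusted p = 0.47), a change of -2.07 (adjusted p = 0.0119) that kept its call with any array left out. AT1G12120 and AT5G22450 went from 2.64 and 2.18 at 12 °C to 0.46 and 0.01 at 2 h, neither of which was called.

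In the opposite direction AT1G29090, a papain-type cysteine protease, differed by -2.26 at 12 °C and by -0.20 at 2 h. AT4G32440 differed by -1.0 at 12 °C and by 0.81 at 2 h (adjusted p = 0.0309), and it read 5.36 and 5.23 in Col-0 and 6.02, 6.01, 6.27 and 6.12 in arp6-10. AT1G16640, a B3-domain DNA-binding protein, read 4.28 and 4.09 in Col-0 and 5.78, 5.28, 5.80 and 5.47 in arp6-10, a difference of 1.40 at 2 h (adjusted p = 0.000972) and of -0.00 at 12 °C, with a Col-0 mean under 5. AT2G40120, a protein kinase with a Col-0 mean of 4.82, differed by 1.22 at 2 h (adjusted p = 0.00317) and -0.31 at 12 °C. CSLC12, which belongs to the glucan synthases of xyloglucan, differed by 0.94 at 2 h (adjusted p = 0.00904) and -0.38 at 12 °C. Of these changes between the points, that of AT4G32440 had the smallest adjusted p (0.0197) and that of CSLC12 the largest (0.046). The 2 h call of AT4G32440 was lost without either Col-0 array (differences of 0.88 and 0.75) and without arp6-10 replicate 1, 3 or 4. That of CSLC12 was lost without Col-0 replicate 1 (a difference of 0.57). Those of AT2G40120 and AT2G20550 were lost without Col-0 replicate 2 (differences of 1.06 and -1.04).

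Of the 57 genes named above or in the closing section that were called at 2 h, 35 kept their call without Col-0 replicate 1, 20 without replicate 2, and 18 with any one of the 18 arrays left out. All 57 kept it with 16 arrays. That fit holds the same 2 h arrays, leaves out arrays chosen from these data, and calls 3078 probe sets at 2 h in place of 1466. A call kept there is therefore no separate support.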

How the data were processed

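Total RNA (1 µg per sample) of whole seedlings was made into biotin-labelled cRNA and read on Affymetrix arrays, per the labels' protocols. The deposited intensity of each probe set is on a linear scale, and GCOS is the tool that the submitters' processing notes name. Version, algorithm and genome build of that step are not stated in any source at hand. Their trimmed means lay between 250.03 and 250.04 on all arrays. Of 22810 probe sets 64 are Affymetrix controls. No detection calls were used.

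From these, log2(value + 16) was quantile normalized over 18 arrays, those with a mean over all arrays below its 30th percentile were left out, and 15922 were tested two-sided in 1 model of 6 group means (limma 3.58.1 in R 4.3.3, eBayes with an intensity trend, Benjamini-Hochberg) that leaves 12 residual degrees of freedom. The fit was tested on simulated data. Depth does not apply to arrays, and their number limits the precision.

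Names come from the platform annotation, updated through RefSeq's TAIR10.1 table: 13513 probe sets have 1 gene, 503 several and 8730 are not listed; 13436 matched, and the brightest probe set stands for a gene. Named genes are the 15 largest increases and decreases among called genes without overlap, members of 21 lists (417 genes, 88 tested), the 5 largest changes each way between 12 °C and 2 h, and 10 tested genes each side of ARP6. Uncalled list members are named where they differ by at least 2-fold, pass with 16 arrays or change between 12 °C and 2 h. Members and lists were chosen with earlier results of these data known.
Alternatives were the deposited scale, other pseudocounts and filters, no trend, the compared groups alone, 16 arrays, the replicate number as a block, and each array left out.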

Additional observations from a re-analysis of the deposited data

Results flagged for a closer look

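In 4 of the 76 genes examined, 1 of the 4 arp6-10 arrays at 2 h lay far from the other 3 by Dixon's test at the 95% level, and chance flags about 1 group in 20. UPOX read 9.60 on replicate 2 and at least 10.04 on the others. AT1G66100 read 7.61 on replicate 4 and at most 6.97 on the others. DPE1 read 8.11 on replicate 4 and at least 8.29 on the others, and GRXS8 read 4.83 on replicate 3 and at least 5.45 on the others. In each of the 4 genes the distant array still lay on the same side of both Col-0 arrays as the rest.

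The genotype difference at 2 h departed from that at 12 °C, by the tested change between the points, in 61 named genes, of which the 5 largest each way and 1 list member are given. It was lower at 2 h by the following log2 values: AT1G54410 by -2.70, AT2G20550 by -2.24, AT3G14200 by -2.20, AT1G12120 by -2.18, AT5G22450 by -2.17 and the list member POLD3 by -2.07. It was higher at 2 h in AT1G29090 by 2.05, in AT4G32440 by 1.80, in AT2G40120 by 1.52, in AT1G16640 by 1.40 and in CSLC12 by 1.32. All 11 passed with 16 arrays too. Each but POLD3 lost its call with at least 1 array left out.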

How the results depend on the processing

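The count of 1466 probe sets called at 2 h became 3093 with the compared groups alone and 3078 with 16 arrays, of which 1460 were among the 1466. It ranged from 179 (without Col-0 2 h replicate 2) to 1985 (without arp6-10 24 h replicate 2) when single arrays were left out, and lay between 1040 and 1845 under the other settings. The 94 changes between 12 °C and 2 h became 181 with log2(value + 1), 23 with log2(value + 64), 45 with a filter at the 50th percentile, 28 with the compared groups alone, 317 with 16 arrays, and 9 to 209 without single arrays. The 5128 calls at 12 °C became 3214 with the compared groups alone and 2689 to 5743 without single arrays. The 150 calls at 24 h became 17 with the compared groups alone, 488 with 16 arrays and 29 to 275 without single arrays. Where a setting removes arrays or probe sets the fit has fewer of them, and beyond that the cause was not tested. Leaving out arrays of the 12 °C and 24 h groups was added after the data were seen, and a lone Col-0 array was then assumed to vary like the other groups.

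Replicate numbers are shared by the labels of both genotypes, and deviations of same-numbered 2 h arrays correlated at 0.0531 and -0.0515. With 2 Col-0 arrays, their deviations from the group mean are mirror images. These values therefore cannot show whether a shared number marks a shared batch. With the replicate number as a block 1429 probe sets were called at 2 h, of which 1156 were among the 1466. In that fit 59 changed between 12 °C and 2 h, and 4913 and 151 were called at 12 °C and 24 h.

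Of the 57 named calls at 2 h, 57 held with log2(value + 64) and with the compared groups alone, 56 without a trend, 55 on the deposited values and with the block, 53 without a filter and 47 with log2(value + 1), and no value among the 76 examined changed sign under any setting. A signal under 16 is not shown to be above background, which limits folds of dim probe sets.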

Other observations

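Genes known to rise when mitochondria are stressed were gathered into a list after the values of UPOX, AT12CYS-2, NDB4 and HSP23.5 had been seen, so their counts are a description and carry no test of the list. Of 8 tested, 5 were called higher in arp6-10 at 2 h and none lower, beside 5.18% higher among all tested probe sets. UPOX, AT12CYS-2, NDB4 and HSP23.5 are among these 5 and enter the median too. Beyond them 1 member was called and 3 did not pass. All 8 were positive, beside 8208 of all 15922 tested probe sets. The median difference was 1.77, beside 0.02 over all tested probe sets. The fifth called member was AT5G43450, a dioxygenase gene, which read 8.03 and 8.03 in Col-0 and 8.72, 9.16, 10.06 and 10.22 in arp6-10, a difference of 1.51 ± 0.37 (adjusted p = 0.0179), and its call was lost without either Col-0 array (adjusted p = 0.087 and 0.149). Its arp6-10 arrays were all above Col-0 and spread over more than 1 log2 unit, with replicates 3 and 4 highest, as in AT12CYS-2. AT2G41730 read 9.06 and 9.18 in Col-0 and 10.19, 10.04, 11.63 and 11.42 in arp6-10 and did not pass (1.70, adjusted p = 0.127), and the transporter gene AT2G04050 had a difference of 1.38 (adjusted p = 0.3). With 16 arrays 7 of the 8 were called higher, beside 10.6% of all tested probe sets in that fit.

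A list of genes known to rise in low oxygen was gathered in the same way, after AT4G39675, AT1G33055 and AT1G19530 had been seen to fall. Beyond those 3, none of the other 10 tested members was called with all arrays, their differences ran from -1.17 to 0.71, and the median over the 13 was -0.30. With 16 arrays AT4G27450 (-1.17 with all arrays, adjusted p = 0.223) was called lower as well (adjusted p = 0.00454), and AT3G03270 (0.71, adjusted p = 0.106) was called higher (adjusted p = 0.0138).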
